A study of Drosophila melanogaster with 2 samples.

Results

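Binding of the Mnt-eGFP fusion protein was examined at 10 genes for transcription factors of the ecdysone response: EcR, usp, br, Eip74EF, Eip75B, Eip78C, ftz-f1, Hr4, Hr39 and Eip93F. The genes were taken by symbol from the fly annotation, and all 10 were found among 13945 protein-coding genes. A peak was assigned to a gene when its summit, the base of strongest enrichment, lay between 5 kb upstream of the gene and its end. The 10 windows covered 643 kb and held 57 of the 7451 peaks of the optimal list, the deposited list of reproducible peaks. They also held 260 of the 30000 regions of the pooled list, 287 of the 30000 regions of replicate 1 and 202 of the 30000 regions of replicate 2.

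Chromatin was taken from whole adult female fruit flies (Drosophila melanogaster) whose stable transgene makes Mnt with GFP fused to its C-terminus. It was sheared by sonication and precipitated with an antibody against GFP. The labels give the age as unknown, and they name 1 group with 2 biological replicates of the same line. With 1 group, the values below describe peaks and carry no test between conditions. Whole animals mix all tissues, so a weak peak in many cells and a strong peak in a few cannot be told apart.

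Ecdysone is the steroid hormone of insect molting and metamorphosis, and in adult females it is made largely in the ovary, where it acts on egg chamber growth. The hormone binds a heterodimer of EcR and Usp, which switches on a small set of early genes, among them br, Eip74EF and Eip75B, whose products regulate a second wave of genes. Several of the 10 genes use alternative starts that give different proteins. Mnt is a repressor of the Myc network that binds the E-box CACGTG as a dimer with Max.

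The sequences around 4 summits show what the stronger and the E-box peaks of these genes look like. Each runs from 100 bases before to 100 bases after a summit in the direction of the gene, on the Release 6 genome (dm6) from RefSeq. The first 3 are the strongest peak of Eip74EF (minus strand, chr3L:17612330-17612530), of Hr4 (plus strand, chrX:1976081-1976281) and of ftz-f1 (minus strand, chr3L:18759265-18759465). The last is the strongest E-box peak of Eip75B (minus strand, chr3L:18003054-18003254). Capitals mark matches on either strand, and adjoining matches run together. The motifs are the E-box CACGTG, the repeat GAGAG, the receptor core AGGTCA, and the related E-boxes CACGCG (in Eip74EF), CATGTG (in Hr4 and Eip75B) and CATGCG, which overlaps CATGTG in Eip75B.
Eip74EF: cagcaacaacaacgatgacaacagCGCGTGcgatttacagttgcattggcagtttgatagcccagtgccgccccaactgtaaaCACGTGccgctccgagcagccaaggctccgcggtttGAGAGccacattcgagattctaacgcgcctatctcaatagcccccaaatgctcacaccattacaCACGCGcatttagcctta
Hr4: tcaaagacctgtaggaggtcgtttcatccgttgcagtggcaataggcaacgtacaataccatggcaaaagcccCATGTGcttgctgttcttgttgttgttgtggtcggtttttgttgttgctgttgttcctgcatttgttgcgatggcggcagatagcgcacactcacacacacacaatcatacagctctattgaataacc
ftz-f1: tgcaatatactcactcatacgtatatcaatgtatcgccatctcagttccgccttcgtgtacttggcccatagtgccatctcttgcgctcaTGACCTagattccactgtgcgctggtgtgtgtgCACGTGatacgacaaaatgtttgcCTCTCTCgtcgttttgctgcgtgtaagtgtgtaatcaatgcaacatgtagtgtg
Eip75B: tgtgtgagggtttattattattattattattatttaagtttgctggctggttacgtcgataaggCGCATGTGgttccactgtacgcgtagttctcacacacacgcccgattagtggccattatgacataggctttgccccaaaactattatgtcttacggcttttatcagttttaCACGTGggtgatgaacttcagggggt
All 4 windows lie in introns and overlap no annotated exon. Eip74EF and ftz-f1 have CACGTG near the summit, at 14 bp and 26 bp, Eip75B has it at 78 bp, and Hr4 has CATGTG in its place and no CACGTG. The ftz-f1 window also holds AGGTCA, written TGACCT on this strand, the core that many nuclear receptors bind.

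The optimal list consisted of the 7451 pooled regions with the highest signal, where signal is the authors' own value per region, with no stated scale. Optimal signals ran from 77.1 to 2444 with a median of 141. Signals of the single replicates were on lower scales, with medians of 24.1 in replicate 1 and 12.2 in replicate 2, so ranks were used beside them. The 7451 strongest regions of a replicate are called its top list below, and it ended at a signal of 54.0 in replicate 1 and 26.3 in replicate 2. The lists hold no read counts, and the depth of the libraries is unknown.

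Mnt-eGFP peaks were spread along the introns of 5 of the 10 genes and sparse or absent at the other members. Eip75B had 12 peaks, Eip74EF 11, EcR 10, ftz-f1 10 and Hr4 6, while usp had 3, Hr39 2, Eip93F 2, br 1 and Eip78C 0. At least 1 peak lay in the window of 9 of the 10 genes, against 52.9% of all protein-coding genes and 58.2% of the 1013 protein-coding genes of 20 kb or longer. All members except usp are that long, so the longer genes are the closer background. When peaks within 500 bp of another gene's start were left out, 8 of the 10 genes and 50 peaks remained. The background shares were not recounted in that way. With each replicate's top list in place of the optimal list, 9 and 10 of the genes had a peak in replicates 1 and 2, and the windows held 56 and 60 peaks (58 ± 2.83, SD, n = 2).

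The number of peaks per gene was high for 4 members even beside other long genes. EcR, Eip74EF, Eip75B and ftz-f1 each had 10 or more peaks, a number reached by 43 of the 13945 protein-coding genes and by 35 of the 1013 long genes, these 4 included. In the top lists of replicates 1 and 2 the counts were 9 and 10 at EcR and 9 and 12 at Eip74EF. They were 12 and 12 at Eip75B and 8 and 9 at ftz-f1, so in replicate 1 only Eip75B reached 10. All 5 pairs of neighbouring summits less than 400 bp apart lie in these 4 genes, and each summit of a pair was counted. Ranked by peak count among all protein-coding genes, Eip75B stood at 14, Eip74EF at 19, EcR and ftz-f1 at 27 and Hr4 at 152. The mean over the 10 windows was 5.7 peaks, against 2.09 for long genes, and the medians were 4.5 and 1. Peak density was 0.886 per 10 kb of window over the 10 genes and 0.368 over the long genes. The genes with the most peaks were Tlk with 22, SNF4Agamma with 20, CHES-1-like with 19, bun with 18 and Mnt with 17. They were followed by CG46467, Glut4EF, Pdp1 and Raf with 16 each and shn with 15, of which CG46467 and Glut4EF overlap and share peaks.

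**Figure D1:**
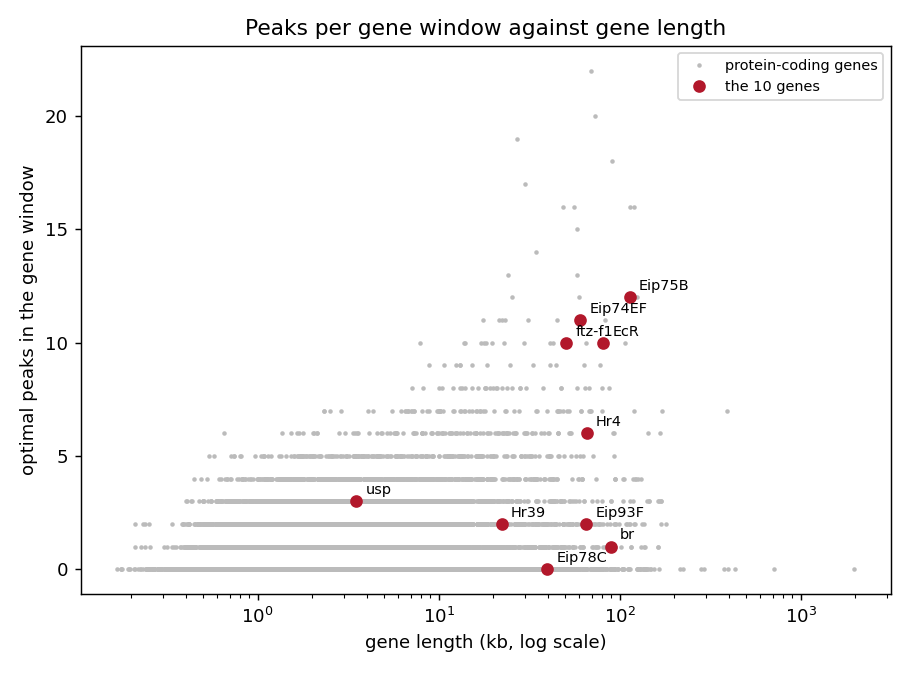
Optimal peaks in the gene window (vertical axis) against gene length in kb (horizontal axis, log scale) for the 10 genes (large points with names) and all protein-coding genes (small points). Eip75B, Eip74EF, EcR and ftz-f1 lie at 10 to 12 peaks, while br and Eip78C, also long genes, lie at 1 and 0.

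Length alone did not order the members. Summits per 10 kb of window were highest in usp at 3.52, a short gene with 3 peaks in 8.51 kb. Most of that window is the 5 kb upstream of the gene, and all 3 peaks lay within 500 bp of another gene's start. Other short genes were not set beside it. The density was 1.80 in ftz-f1, 1.68 in Eip74EF, 1.16 in EcR and 1.01 in Eip75B. Below these came Hr4 at 0.845, Hr39 at 0.729, Eip93F at 0.284 and br at 0.106. The window of br was 94.7 kb, longer than all but that of Eip75B, and it held 1 peak.

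Most peaks of the 10 genes were intronic. Of the 57, 14 (24.6%) lay within 500 bp of a start of the same gene and are called promoter peaks, 37 (64.9%) lay in introns farther from any start, 2 (3.51%) in exons and 4 (7.02%) upstream. Over all long genes the promoter share was 36.4% and the intronic share 42.9%, counting each peak for each gene window that holds it. Single replicates gave 16 and 13 promoter peaks and 35 and 40 intronic ones. Intronic peaks lay at a median of 6.90 kb from the nearest start of their gene and at up to 22.0 kb, and 25 of the 37 were more than 5 kb away. The promoter peaks had a median signal of 153 and the intronic ones 122, which is close to 146 and 119 over the long genes.

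**Figure D2:**
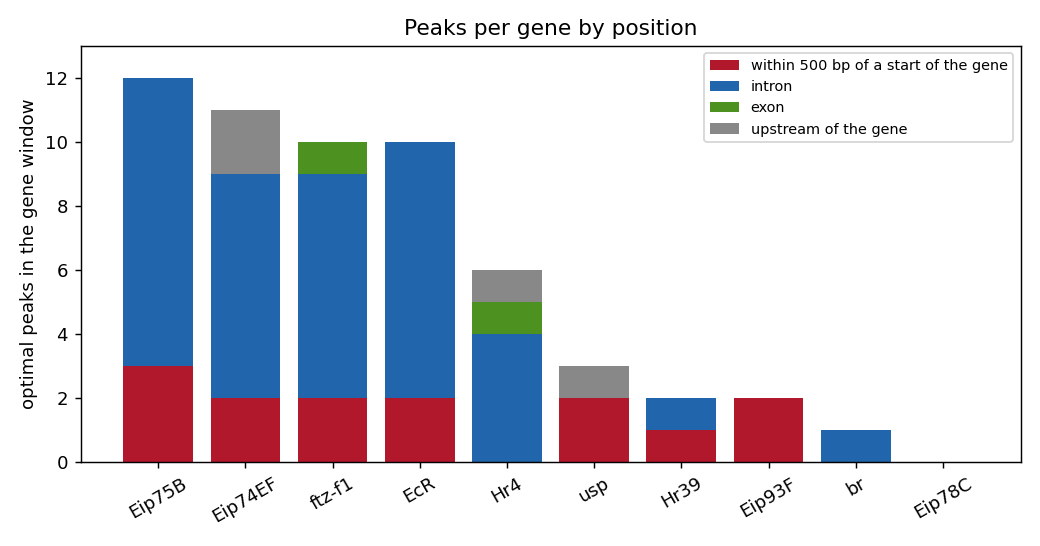
Optimal peaks in the window of each gene (vertical axis, number of peaks), split by position relative to that gene's own starts and exons. Intronic peaks make up 9 of 12 at Eip75B, 7 of 11 at Eip74EF, 8 of 10 at EcR and 7 of 10 at ftz-f1, while both Eip93F peaks are promoter peaks.

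Promoter peaks were found at 7 of the 10 genes, EcR, usp, Eip74EF, Eip75B, ftz-f1, Hr39 and Eip93F, and in each replicate alone at 7. The share over all protein-coding genes was 38.1%, and over long genes it was 45.5%. Leaving out peaks within 500 bp of another gene's start, for the members only, gave 6 of the 10 genes. The 10 genes have 60 annotated transcripts with 36 distinct starts, which form 33 start groups when starts less than 100 bp apart are joined. Of these, 15 had an optimal peak within 500 bp, against 36.1% of the 18925 start groups of all protein-coding genes. The share over the start groups of long genes was not counted. With 33 groups at 10 genes, against 18925 at 13945 genes, a member had on average more starts at which a promoter peak could lie. The shares of genes given above were not adjusted for the number of starts. By the replicates' own summits within 500 bp, the top lists alone gave 13 and 12 groups, and 10 groups were in both. At the other extreme, 10 of the 33 groups had no region of the pooled list, which ends at a signal of 13.6, within 500 bp.

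**Figure D3:**
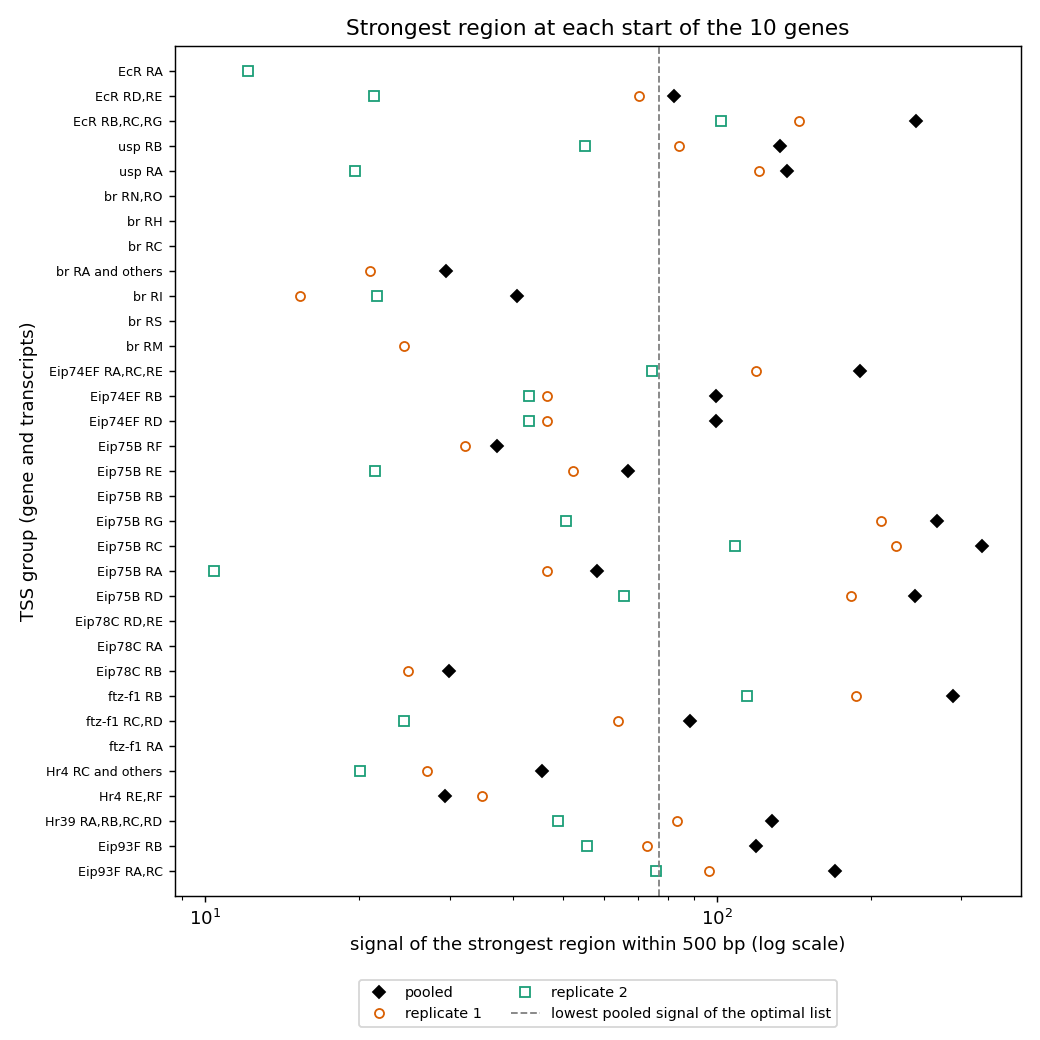
Signal of the strongest region within 500 bp of each start group (horizontal axis, log scale) in the pooled list and in each replicate's list. Each row is a start group named by its gene and transcripts, a missing point means that no region was listed there, and the dashed line is the lowest optimal signal of 77.1. The scales of the 3 lists differ. By pooled signal the groups of Eip75B-RC, ftz-f1-RB and Eip75B-RG are the strongest, and 5 of the 7 br groups have no pooled region.

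The ecdysone receptor is the product of EcR, a nuclear receptor gene of 81.2 kb on the minus strand of chromosome arm 2R, from 6087873 to 6169087. Its 10 peaks comprised 2 at starts and 8 in introns. The strongest lay in an intron of EcR-RA, 5.82 kb downstream of the start of EcR-RD and EcR-RE, at 6151153 to 6151427, with a pooled signal of 266. It had 231 in replicate 1 (rank 907) and 39.2 in replicate 2 (rank 4793). The replicates thus placed it far apart, although both held it in their top lists.

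The start group of EcR-RB, EcR-RC and EcR-RG had a peak 204 bp upstream, with 245 pooled, 144 in replicate 1 and 102 in replicate 2. It was followed upstream by 2 intronic peaks of EcR-RA at 1165 and 1815 bp. These had pooled signals of 225 and 228, with 137 and 149 in replicate 1 and 86.8 and 94.3 in replicate 2. The 3 together formed the densest stretch of strong EcR peaks, and each ranked higher in replicate 2 than in replicate 1. The next in strength, at 159, lay 16.4 kb downstream of this group, with 92.5 and 63.9 in the replicates.

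The other starts of EcR differed from this one. The group of EcR-RD and EcR-RE had a peak of 82.4 at 404 bp downstream, close to the end of the optimal list at rank 6976. A second summit, at 603 bp and with 148, lay just outside the promoter distance, and both fell in the same region of each replicate, with 94.6 and 51.1. The replicates' own summits within 500 bp of this start had 70.2 and 21.3, the latter outside the top list of replicate 2. The start of EcR-RA, the most upstream, had no pooled region, and the only regions within 500 bp of it were 2 weak ones in replicate 2, with 12.1 for the stronger.

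The partner of EcR is Ultraspiracle, the fly ortholog of the vertebrate RXR receptors, encoded by the short gene usp (3.51 kb, chromosome X, 2038798 to 2042311, minus strand). Both of its starts had a peak. The peak at usp-RB lay 55 bp downstream of the start with 133 pooled, 84.4 in replicate 1 and 55.2 in replicate 2. The peak 187 bp upstream of usp-RA had 137 pooled, 121 in replicate 1 (rank 2745) and 19.6 in replicate 2 (rank 9767). The 2 replicates differed on it, since it fell outside the top list of replicate 2. Another peak, 1.52 kb upstream of the gene, had 95.2, 48.9 and 46.4 and lay 9 bp from a start of CG4325. All 3 lay within 500 bp of a start of another gene, Actn, CG4313 or CG4325, and cannot be assigned to usp alone.

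Of the early genes, Eip75B encodes the heme-binding nuclear receptor E75, a relative of the vertebrate Rev-erb receptors. The gene spans 114 kb on the minus strand of 3L, from 17950953 to 18064696, with 7 start groups, and its 12 peaks comprised 3 at starts and 9 in introns. The start of Eip75B-RC had the strongest peak, 26 bp downstream, with 329 pooled (rank 905), 223 in replicate 1 (rank 973) and 108 in replicate 2 (rank 888). The start of Eip75B-RG had 268 at 148 bp upstream, with 209 and 50.8 in the replicates, and that of Eip75B-RD had 244 at 101 bp downstream, with 183 and 65.7. These 3 starts, which lie 38.7, 64.9 and 103 kb into the gene, were in the top lists of both replicates.

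The remaining 4 starts of Eip75B had no optimal peak. Eip75B-RE had a pooled region of 66.9 within 500 bp, Eip75B-RA one of 58.3 and Eip75B-RF one of 37.1, all below the optimal list, and Eip75B-RB had none. The optimal peaks thus sat at 3 of the 4 internal starts and at none of the 3 starts in the first 5.1 kb. Among the intronic peaks, the strongest had 262 pooled, 137 in replicate 1 and 127 in replicate 2, lay 3.33 kb upstream of Eip75B-RC and holds the E-box printed above. Another strong one, 5.22 kb downstream of Eip75B-RD, had 196, 109 and 80.9.

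**Figure D4:**
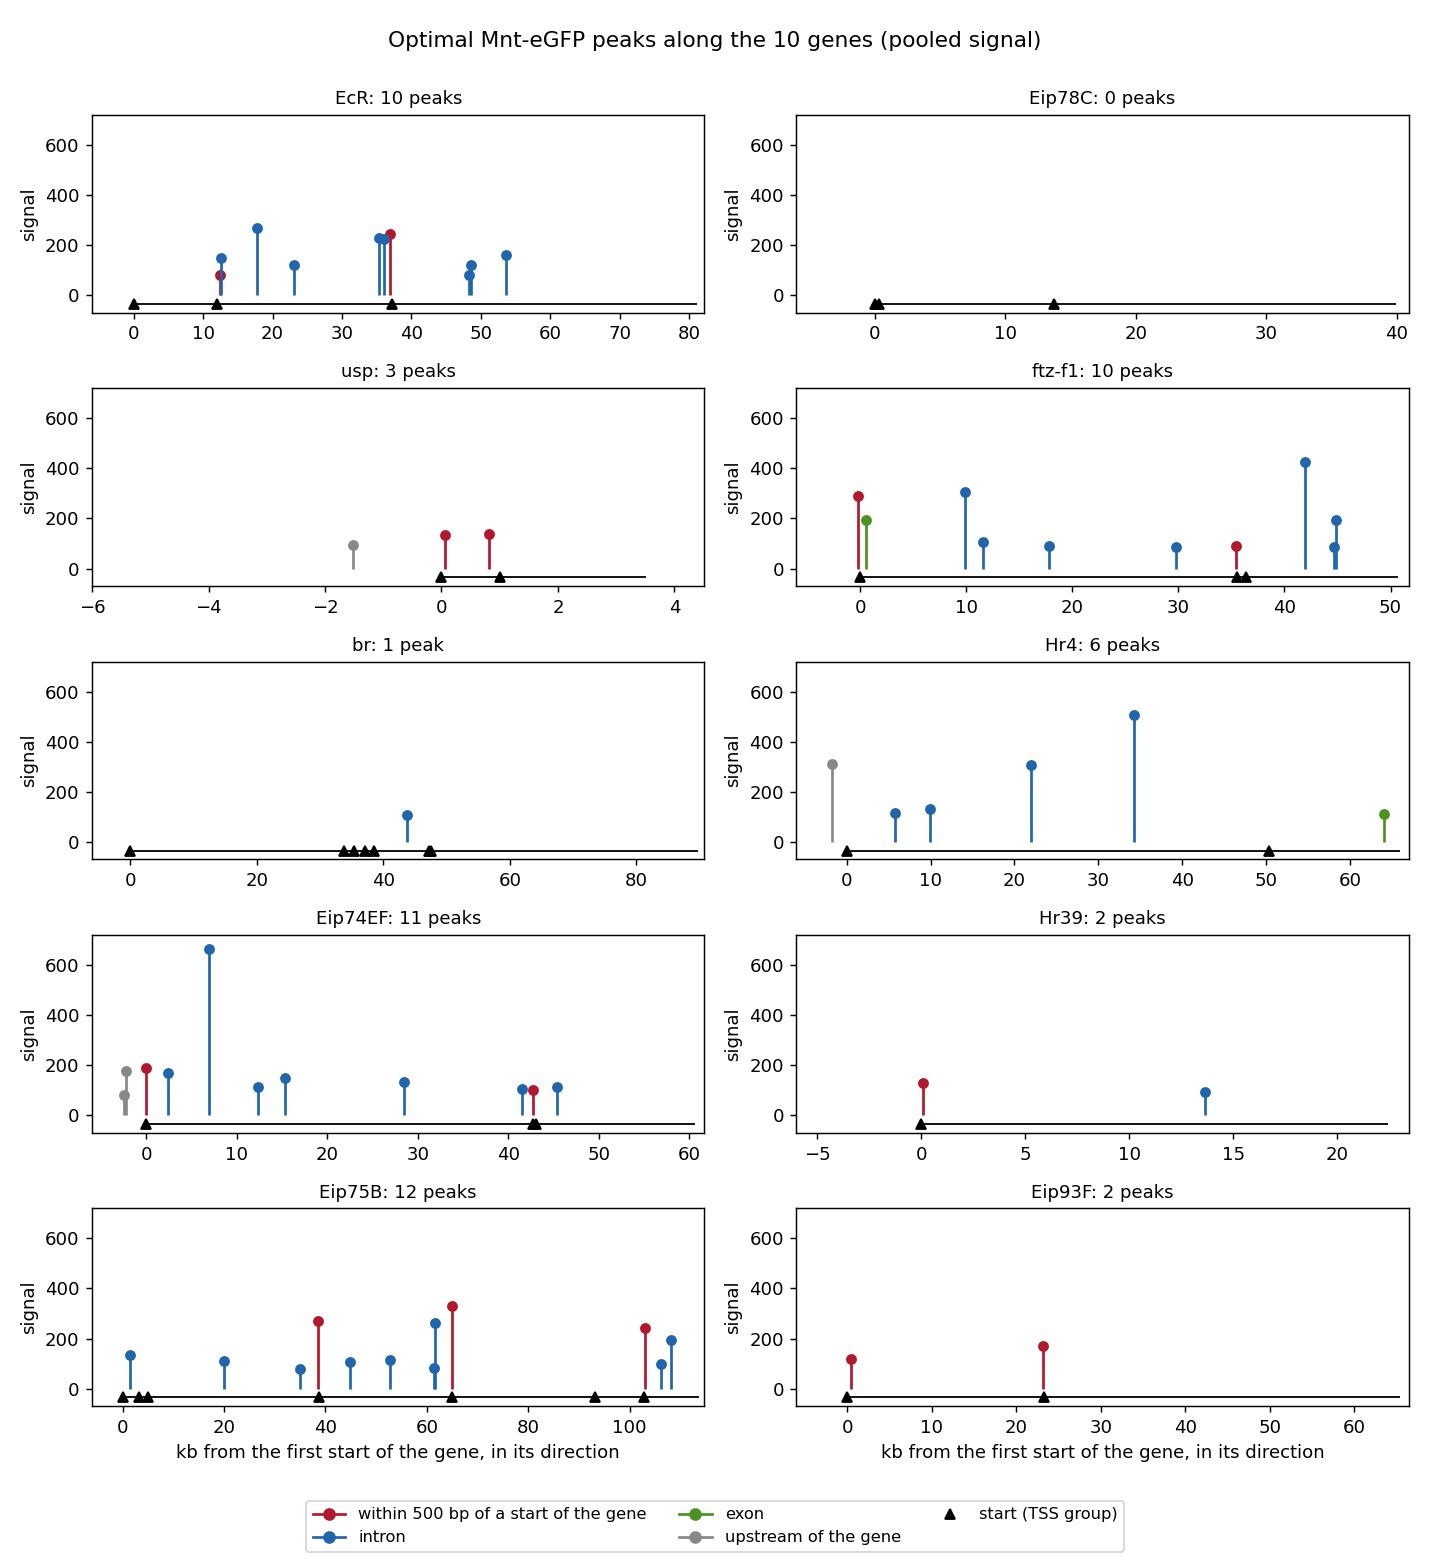
Optimal peaks along each of the 10 genes: the horizontal axis is the distance in kb from the first start in the direction of the gene, the vertical axis the pooled signal, and triangles mark start groups. Colours separate promoter, intronic, exonic and upstream peaks. The strongest peak of Eip74EF (663), of Hr4 (507) and of ftz-f1 (424) each stands in an intron away from any start.

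Eip74EF encodes E74, an ETS-domain transcription factor induced directly by the hormone, in 60.7 kb on the minus strand of 3L, from 17558672 to 17619325. Its 11 peaks included the strongest of all 10 genes, in the first intron of Eip74EF-RA, which is 15267 bp long, 6.90 kb downstream of the start. This peak, at 17612193 to 17612614, had a pooled signal of 663 (rank 225), 514 in replicate 1 (rank 192) and 158 in replicate 2 (rank 440). The other 10 peaks of the gene had signals of 190 or lower. Replicates 1 and 2 both placed it first among the regions of this window.

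All 3 start groups of Eip74EF had an optimal peak nearby. The shared start of Eip74EF-RA, Eip74EF-RC and Eip74EF-RE had 190 at 4 bp upstream, with 119 in replicate 1 and 74.6 in replicate 2. The neighbouring starts of Eip74EF-RB and Eip74EF-RD shared 1 peak of 99.6, with 46.5 (rank 8600) and 42.9 (rank 4265). The upstream start was thus in both top lists, and the internal pair was outside that of replicate 1. Intronic peaks of 170 at 2.40 kb and 147 at 15.3 kb came next. A pair of upstream peaks of 176 and 81.3 lay within 500 bp of the starts of Vps60 and anchor and shared 1 region in each replicate.

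The Broad-Complex gene br encodes zinc finger proteins that mark the onset of metamorphosis, with 16 transcripts from 7 start groups over 89.7 kb of chromosome X (1575132 to 1664869, plus strand). It had 1 optimal peak, in an intron 3.37 kb upstream of br-RS, with 107 pooled, 75.1 in replicate 1 and 39.1 in replicate 2. That summit also lies inside Mur2B, a gene that overlaps br. No start of br had an optimal peak, and the strongest pooled regions near a start had 40.7 at br-RI and 29.5 at the group of br-RA. A further 14 pooled regions lay in the br window below the optimal list, the strongest with 71.6 at 12.95 kb upstream of br-RH. Each replicate alone gave 2 peaks in place of 1.

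Eip78C, which encodes E78, another Rev-erb type receptor, had no optimal peak in its 44.9 kb window on 3L. It had 11 pooled regions, and the strongest, 1.77 kb upstream of the gene, had 73.6 at rank 7794, just past the end of the optimal list. Its replicate values were 51.5 (rank 7810) and 27.1 (rank 7235), so it was in the top list of replicate 2 and not in that of replicate 1. With replicate 2 alone the gene had 2 peaks and with replicate 1 alone 0. The count of 0 in the window therefore depends on where the optimal list ends. The next pooled region was farther from that end, with 53.6 at rank 10417. At the starts, Eip78C-RB had a pooled region of 29.9 at rank 16328, and the groups of Eip78C-RA and of Eip78C-RD and Eip78C-RE had none.

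Strong intronic peaks were also found in genes that act between the early and the late response. The nuclear receptor gene ftz-f1 gives cells of the prepupa the competence to respond to the hormone again. It spans 50.7 kb on the minus strand of 3L, from 18750607 to 18801309, and had 10 peaks, of which 2 lay at starts, 7 in introns and 1 in an exon. The strongest, in the first intron of ftz-f1-RA at 18759234 to 18759528, 5.59 kb downstream of its start, had 424 pooled (rank 554), 267 in replicate 1 (rank 710) and 150 in replicate 2 (rank 478). A second intronic peak, 9.89 kb downstream of ftz-f1-RB, had 307, 201 and 107. Both stood in the same high range in both replicates.

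Starts of ftz-f1 differed from each other. The peak 170 bp upstream of ftz-f1-RB had 289 pooled, 187 in replicate 1 (rank 1319) and 115 in replicate 2 (rank 800), and lay 167 bp from the start of lncRNA:CR45939, a non-coding gene. The start of ftz-f1-RC and ftz-f1-RD had 88.5, with 64.0 and 24.4, outside the top list of replicate 2. The start of ftz-f1-RA, the most downstream, had no region within 500 bp in any list. The exonic peak, 599 bp downstream of ftz-f1-RB and in its 5′ UTR, just outside the promoter distance, had 195, 152 and 31.1. An intronic peak 8.52 kb downstream of ftz-f1-RA had 193, 118 and 73.1.

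Hr4 encodes an orphan nuclear receptor that acts in the larva on the timing of hormone release, in 66.0 kb of chromosome X from 1941940 to 2007956 on the plus strand. None of its 6 peaks lay at a start, and the strongest stood in the fourth intron of Hr4-RC, at 1976039 to 1976344. It had 507 pooled (rank 396), 325 in replicate 1 (rank 478) and 182 in replicate 2 (rank 313). An intronic peak 22.0 kb downstream of the first start had 306, with 234 and 72.3. The peak 1.73 kb upstream of the gene had 310, 218 and 91.7, and lay within 500 bp of starts of CG3587 and CG3857. Its own 2 start groups had pooled regions of 45.5 and 29.4.

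The weaker Hr4 peaks were less alike between the replicates. One at 9.97 kb downstream had 132 pooled, with 109 in replicate 1 and 17.5 in replicate 2. One at 5.80 kb had 114, with 90.7 and 25.1. The exonic peak had 112, with 104 in replicate 1 and no region in replicate 2, the only one of the 57 peaks without a match in a replicate.

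Hr39, a close relative of ftz-f1 needed for the reproductive glands of females, has 1 start group for its 4 transcripts in 22.4 kb of 2L, from 21237250 to 21259675 on the plus strand. Its start had a peak of 128 at 58 bp downstream, with 83.5 in replicate 1 and 49.0 in replicate 2. An intronic peak 13.6 kb downstream had 93.2, with 57.1 and 27.4. Both were in the top list of each replicate, at middle to low ranks.

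Eip93F encodes a helix-turn-helix factor of the late response that is needed for adult fates and for the death of larval tissue. It lies on 3R from 21949114 to 22014539 on the plus strand, and both of its start groups had a peak. The start of Eip93F-RA and Eip93F-RC, 23.3 kb into the gene, had 170 at 51 bp upstream, with 96.4 and 75.8 in the replicates. The peak at Eip93F-RB had 119 at 423 bp downstream, with 72.8 and 55.7. No other optimal peak lay in its 70.4 kb window, although 29 weaker pooled regions did, the strongest with 63.4. Replicate 1 alone gave 4 peaks and replicate 2 alone 3.

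Over the 57 peaks, signals were of ordinary size for the optimal list, with a median of 133 against 141 for all 7451 peaks. Only 2 were among the 500 strongest and 4 among the 1000 strongest, and 32 ranked below 3725. The strongest peak per gene had a median of 266 over the 9 genes with a peak. It was 195 over the 7370 protein-coding genes with one and 202 over the long genes with one. A maximum tends to rise with the number of peaks it is taken from, so these medians are not like for like. The mean was 5.7 peaks per window here, 1.13 over all protein-coding genes and 2.09 over long genes. The 4 peaks among the 1000 strongest belong to Eip74EF, Hr4, ftz-f1 and Eip75B.

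The replicates held the 57 peaks about as often as they held all peaks. A region of both replicates overlapped 56 of them, and both top lists held 44 (77.2%), against 77.4% of all optimal peaks. The ratio of replicate 1 to replicate 2 signal had a median of 1.79 over the 56 peaks, with a range from 1.05 to 6.66, and a median of 2.18 over all peaks. The lowest ratio was at the upstream peak of usp and the highest at an Eip75B intron peak with 100 and 15.0. Across the 56 peaks the Spearman correlation of the replicate signals was 0.59, and across 7272 optimal peaks it was 0.65; peaks in 1 library share its depth, and of 5 pairs of neighbouring summits less than 400 bp apart, 4 share a region in each replicate.

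**Figure D5:**
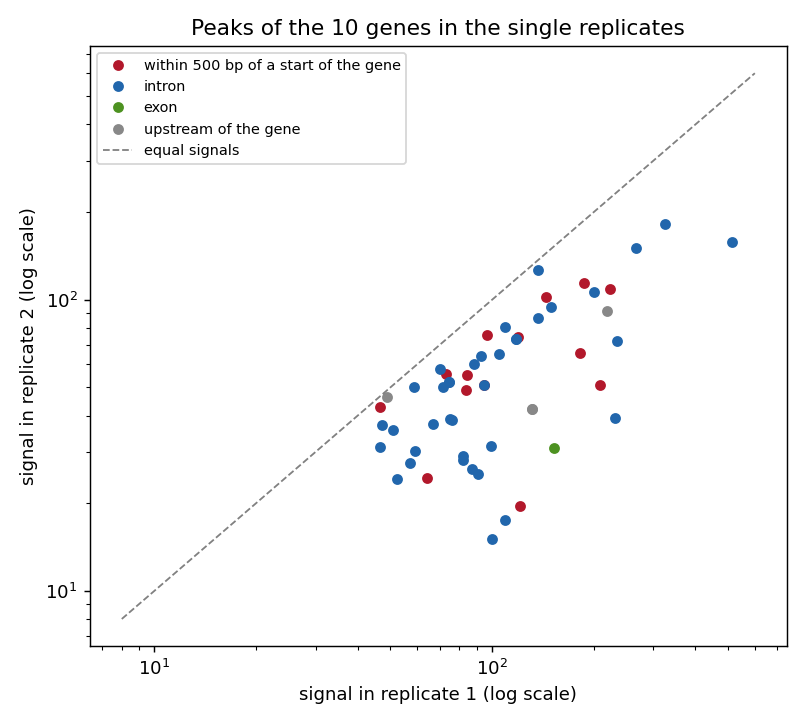
Signal in replicate 2 (vertical axis, log scale) against replicate 1 (horizontal axis, log scale) for the 56 peaks with a region in both, coloured by position, with a dashed line of equal signals. Neighbouring summits that share a region coincide. All points lie below the line, with ratios from 1.05 to 6.66.

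Motifs were counted in windows of 100 bp to each side of a summit, on both strands, in the 57 peaks and in all 7451. CACGTG was in 5 windows, or 8.77% (95% exact interval 2.91 to 19.3%), against 8.64% of all. The 5 lay in introns of EcR, Eip74EF, Eip75B and, for the last 2, ftz-f1, and 0 of the 14 promoter peaks had it. Beside those printed above, they were the EcR peak of 148 and a ftz-f1 peak of 89.5 at 17.8 kb from its start, with the E-box 50 and 44 bp from the summit. Of all optimal peaks within 500 bp of a start 7.83% had CACGTG, and of those farther away 10.7%. The related CATGTG was in 12 windows (21.1%) against 14.9% of all and 22.6% of those farther away. CACGCG was in 3 windows (5.26%) against 10% of all, CATGCG in 5 (8.77%) against 7.13%, and CAGCTG in 7 (12.3%) against 14.4%.

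Repeats of the GAGAG type, the core bound by the GAGA factor Trl, were the most frequent of the 10 motifs searched. GAGAG is also the shortest of them, and a shorter motif occurs more often in any window. Its first place is therefore no trait of these peaks, and it was the most frequent over all windows too. GAGAG was in 30 of the 57 windows, or 52.6% (95% exact interval 39.0 to 66.0%), against 31.0% of all windows and 36.5% of those beyond 500 bp of a start. It was in 19 of 37 intronic and 9 of 14 promoter windows. AGGTCA was in 5 windows (8.77%, interval 2.91 to 19.3%) against 3.22% of all, all of them intronic. The longer TCAAGGTCA, a form bound by Ftz-F1 type receptors that contains AGGTCA, was in 1 window, an Eip75B intron peak of 99.5, and in 0.121% of all. The promoter motifs TATCGATA and GGTCACAC were in 0 windows, against 6.19% and 5.44% of all and 8.29% and 7.45% of those within 500 bp of a start. Several motifs overlap each other in single windows, and no share was tested. The intervals treat the 57 peaks as independent, although many lie in the same gene and some motif windows overlap. They therefore do not measure a difference from the shares over all peaks.

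Other genes of the pathway were read in the same way, as lists chosen with earlier results of these data known. Among 10 genes of ecdysone synthesis, uptake and clearance, 1 had a promoter peak, Oatp74D (the ecdysone importer EcI), with 130. Those without a promoter peak include Cyp18a1, which clears the hormone, and the synthesis genes dib and nvd. Cofactors of EcR, Usp or Ftz-F1 gave 7 of 7, against 38.1% of all protein-coding genes. The coactivator gene tai had 361, bon 248, E(bx), a subunit of a nucleosome remodeler, 216 and trr, a histone methyltransferase gene, 181, all at starts. The window of tai held 11 peaks and that of the corepressor gene Smr 13.

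Of 14 other nuclear receptor genes, 5 (35.7%) had a promoter peak, near the 38.1% of all protein-coding genes. ERR had 327, Hr96 293, Hnf4 154 and Hr38 140, while dsf, eg and Hr3 had none. Of 25 other ecdysone-induced genes, 9 (36%) had one, against the same 38.1%. The Eig71E cluster alone supplied 11 of these 25 genes and none of the 9, which lowers this share. E23, which encodes a transporter, had 557, vri 398, Cth (Eip55E) 351 and Eip63F-1 314, and all 11 salivary gland genes of the Eig71E cluster lacked one. Of 5 genes of the juvenile hormone response, gce had 156, Met 92.4 and Kr-h1 82.4, and jhamt and Jhe had none. Kr-h1 was listed under both, and the strongest of the 7 peaks in its window, away from its starts, had 1091.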

How the data were processed

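The deposited dm6 peak lists were used: an optimal, a pooled and 2 single-replicate lists. Each region has a signal given by the authors' peak caller, taken as deposited, with caller, aligner and signal scale not given in the sources used here. The replicates are labelled biological replicates of the same line. Depth is unknown. Intervals are exact (Clopper-Pearson), cover counts of peaks only and treat the peaks as independent. Control libraries were not analysed here.

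Summits were set against the Ensembl release 115 annotation and the Release 6 genome, in which 99.8% of 30593 annotated start codons read ATG. Positions are 1-based. Promoter means within 500 bp of a start, and starts less than 100 bp apart were joined. A replicate match is an overlap of 1 bp or more, and the strongest overlapping region is given. Replicate values of a peak come from that match, while counts of start groups per replicate, and the plot by start, use the replicate's own strongest summit within 500 bp. The members, lists, motifs and settings were chosen with earlier results of these data known. Named peaks are all those of members with 5 or fewer and the 5 strongest of others, and every peak at a start was added. Further peaks (those with an E-box or TCAAGGTCA, close pairs, and the peaks that differ most between replicates) were chosen after their values were seen. From each list up to 4 genes with the strongest promoter peak and up to 3 without one, in alphabetical order, were named, and remarks on other list members were chosen after their values were seen. Older symbols were matched through synonyms, and phm and EcI by hand. Counting was checked on simulated summits, with 20 of 20 simulations counted right. The scripts ran on Python 3.11.15 with pandas 2.3.3, numpy 2.4.6 and matplotlib 3.10.9, and intervals came from scipy 1.17.1.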

Additional observations from a re-analysis of the deposited data

How the results depend on the processing

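Of 61 alternative values of the 10 genes, 47 kept the reported count within 1.5 times or the value within the spread of the replicates. The other 14 moved. For the share of peaks matched in both replicates no spread was available, and any change counted as moved. For the median strongest signal the spread was wide (SD 95.2), because the 2 replicates have different signal scales. With only the stronger peaks of the optimal list, down to its middle rank, the windows held 25 peaks, 7 at starts and 15 in introns. In that list 7 start groups had a peak, the median strongest signal was 377 and 16.0% of the peaks had CACGTG. Within 50 bp of the summit CACGTG was in 5.26% and within 250 bp in 14.0%. Without peaks within 500 bp of another gene's start, 11 promoter peaks and 12 start groups with a peak remained. The share of peaks matched in both replicates was 98.2% as reported, 94.7% with an overlap of at least 50% of the region, 77.2% against the top lists, 98.0% with windows that start at the gene and 98.0% without peaks near other genes' starts. With 1 replicate left out, the counts ranged from 56 to 60 peaks, 13 to 16 at starts, 35 to 40 in introns, 9 to 10 genes with a peak, 7 with a promoter peak in either case and 12 to 13 start groups, and the share with CACGTG from 8.93% to 13.3%. The median strongest signal ranged from 88.9 to 223, on the scales of the single lists. By gene, in values added after the data were seen, single replicates gave 0 and 2 peaks at Eip78C, 2 and 2 at br and 4 and 3 at Eip93F for replicates 1 and 2. No paired analysis was possible because there is 1 group. A fixed list length sets which weak regions count as peaks, and unknown depth leaves their error unmeasured.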
